A study of Homo sapiens with 6 samples.

Results

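The genes described here build the contacts between epithelial cells. They are 10 of the 19942 gene symbols of the series and were chosen by name, with earlier results of these data known. No threshold was put on their values, and shares of them set beside those of all genes describe the list and test nothing. The list holds the cadherins CDH1 and CDH3 and the adhesion molecules EPCAM, NECTIN3 and PCDH7. It also holds the tight junction scaffold TJP1, the tight junction membrane protein OCLN, and the claudins CLDN1, CLDN3 and CLDN4. Epithelial cells are held together by adherens junctions, in which cadherins and nectins of neighbouring cells bind each other and are tied to the actin skeleton through catenins and afadin. Tight junctions lie above them and seal the space between cells. Claudins form the seal, occludin runs through it, and ZO proteins such as TJP1 anchor both to actin. In the colon these contacts keep the lining closed, and loss of E-cadherin, the product of CDH1, is a common mark of carcinoma cells that leave the epithelium.

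The values come from RNA sequencing of HCT116, a widely used line of human colorectal carcinoma cells. Parental (wild-type) cells and cells resistant to 5-fluorouracil (5-FU), a pyrimidine analogue used against colorectal cancer, were each untransfected, transfected with control siRNA, or transfected with EHMT2 siRNA. EHMT2 encodes G9a, a methyltransferase of histone H3 lysine 9. Each of the 6 groups held 1 library, so differences between libraries cannot be checked against replicates. The untransfected resistant cells carry another form of the library name than the transfected resistant ones, and both forms stand for resistant cells in the series' description. The dose and length of 5-FU exposure and the number of resistant clones were not given in the sources used here.

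Values are FPKM, which are scaled to gene length and library size, and the order of levels of any gene across libraries cannot be set against a spread between replicates. In parental cells EHMT2 was at 31.7 FPKM with control siRNA and at 8.58 (27.1% of the control) with its own, and in resistant cells it was at 19.5 and 3.80 (19.5%). Per library, 11240 to 11722 genes had 1 FPKM or more, and read depth is unknown. Of 12 markers of colon epithelium, EPCAM, KRT8, KRT18, KRT19 and CDX2 were at 1 FPKM or more in every library, while VIL1, CDH17, CDX1, GPA33, LGALS4 and MUC2 were listed at 0 in all 6. The summed level of the 12 ran from 1623 to 2539 FPKM. Of 6 fibroblast markers 5 were listed at 0 throughout, and the endothelial markers PECAM1, CDH5, VWF and CLDN5 and the leukocyte markers PTPRC and CD3E were also at 0. The leukocyte and macrophage marker CD68 lay between 0.372 and 4.99 FPKM, higher in the resistant library of each pair. The neuronal marker SYT1 was at 29.1 FPKM in parental and 0.476 in resistant untransfected cells, at 16.9 and 21.5 with control siRNA, and at 4.47 and 5.82 with EHMT2 siRNA. Their part in the results was not tested. In bulk RNA, fewer cells that express a gene and less RNA per cell cannot be told apart.

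Sequence before the start of transcription was taken from RefSeq (GRCh38.p14), as the 250 bases upstream of each listed start. The tables held 11 such windows for 7 of the 10 genes, and no entry for CDH1, CDH3 or EPCAM. Each window was searched on both strands for CAGGTG, which reads CACCTG on the other strand. This is the E-box bound by the ZEB and SNAIL repressors of epithelial genes. The printed windows were chosen because TJP1 was among the genes that were higher with EHMT2 siRNA, CLDN3 among those that were lower, and PCDH7 was the gene listed at 0 in 1 library. They lie on build GRCh38.p14 at chr15:29969050-29969299 (minus strand, the first of 4 TJP1 starts), chr7:73770271-73770520 (minus strand) and chr4:30720119-30720368 (plus strand), outside the exons of GENCODE 29. Capitals mark CAGGTG on either strand.
TJP1: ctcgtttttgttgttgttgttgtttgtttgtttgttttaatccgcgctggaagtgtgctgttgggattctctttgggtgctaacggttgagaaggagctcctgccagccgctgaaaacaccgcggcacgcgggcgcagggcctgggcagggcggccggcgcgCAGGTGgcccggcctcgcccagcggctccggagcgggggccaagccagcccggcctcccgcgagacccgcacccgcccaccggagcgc
CLDN3: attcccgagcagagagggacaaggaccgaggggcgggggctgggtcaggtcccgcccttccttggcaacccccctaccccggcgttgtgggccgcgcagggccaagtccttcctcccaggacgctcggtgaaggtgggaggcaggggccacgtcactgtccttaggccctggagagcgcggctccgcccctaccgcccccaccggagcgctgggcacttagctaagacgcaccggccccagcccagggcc
PCDH7: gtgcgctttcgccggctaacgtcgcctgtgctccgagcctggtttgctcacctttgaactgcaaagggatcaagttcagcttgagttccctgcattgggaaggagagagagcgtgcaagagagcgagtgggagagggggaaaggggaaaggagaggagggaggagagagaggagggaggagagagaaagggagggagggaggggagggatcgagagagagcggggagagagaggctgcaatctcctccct
OCLN was the other gene that was higher with EHMT2 siRNA, and the following 30-base stretches show its E-boxes, at chr5:69492502-69492531 and chr5:69492645-69492674 (plus strand), 33 bases before its first start and 133 bases before its second. Unlike the printed windows, those of OCLN overlap exons of GENCODE 29, by 250 of 250 bases at the first start and 120 at the second. By that annotation both boxes lie inside the OCLN gene.
OCLN start 1: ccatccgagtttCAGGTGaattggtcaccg
OCLN start 2: tctaggacgcagCAGGTGggactcgcggcg
The TJP1 box began 88 bases before the start. No CAGGTG was found in the windows of PCDH7, CLDN1, CLDN3, CLDN4 or NECTIN3, or at the later TJP1 starts. So 3 of the 11 windows (27.3%) held it, against 17.5% of all 35116 windows of that length. The 3 come from OCLN and TJP1 alone, and the OCLN windows overlap, so they are not independent. GGAATG, the site of TEAD factors, AACNGGTT, the site of grainyhead-like factors, and TATAAA, the TATA box, all sought on both strands, were in none of the 11, and in 11.9%, 1.49% and 10.7% of all windows. No motif lies within another. GC content was 71.6% in the CLDN3 window, 66.8% at the first TJP1 start and 59.6% in the PCDH7 window, against a median of 58% over all windows.

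CLDN1, a claudin of many epithelia, was listed at 0 in all 6 libraries (chr3:190305701-190322475, minus strand). No ratio or test is given for it, and the counts that follow are over the 9 genes that reached 1 FPKM. EPCAM, a homophilic adhesion protein that also steadies claudins at the membrane, had the highest level of the 9 in every library, from 70.9 to 185 FPKM (chr2:47345158-47387601). CLDN4, a sealing claudin, lay between 27.1 and 84.5 FPKM, and CDH3, which encodes P-cadherin, between 19.1 and 55.2. TJP1, which encodes ZO-1, ran from 20.4 to 33.3 FPKM (chr15:29699367-29968865) and CDH1 from 8.04 to 24.5. Lower levels were those of NECTIN3 (3.99 to 16.1 FPKM, chr3:111070071-111275563), CLDN3 (2.31 to 10.9) and OCLN (2.67 to 6.42, chr5:69492292-69558104). PCDH7, a protocadherin, ran from 0 to 33.1 FPKM (chr4:30720415-31146805) and was the lowest of the 9 in all 3 resistant libraries.

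**Figure D1:**
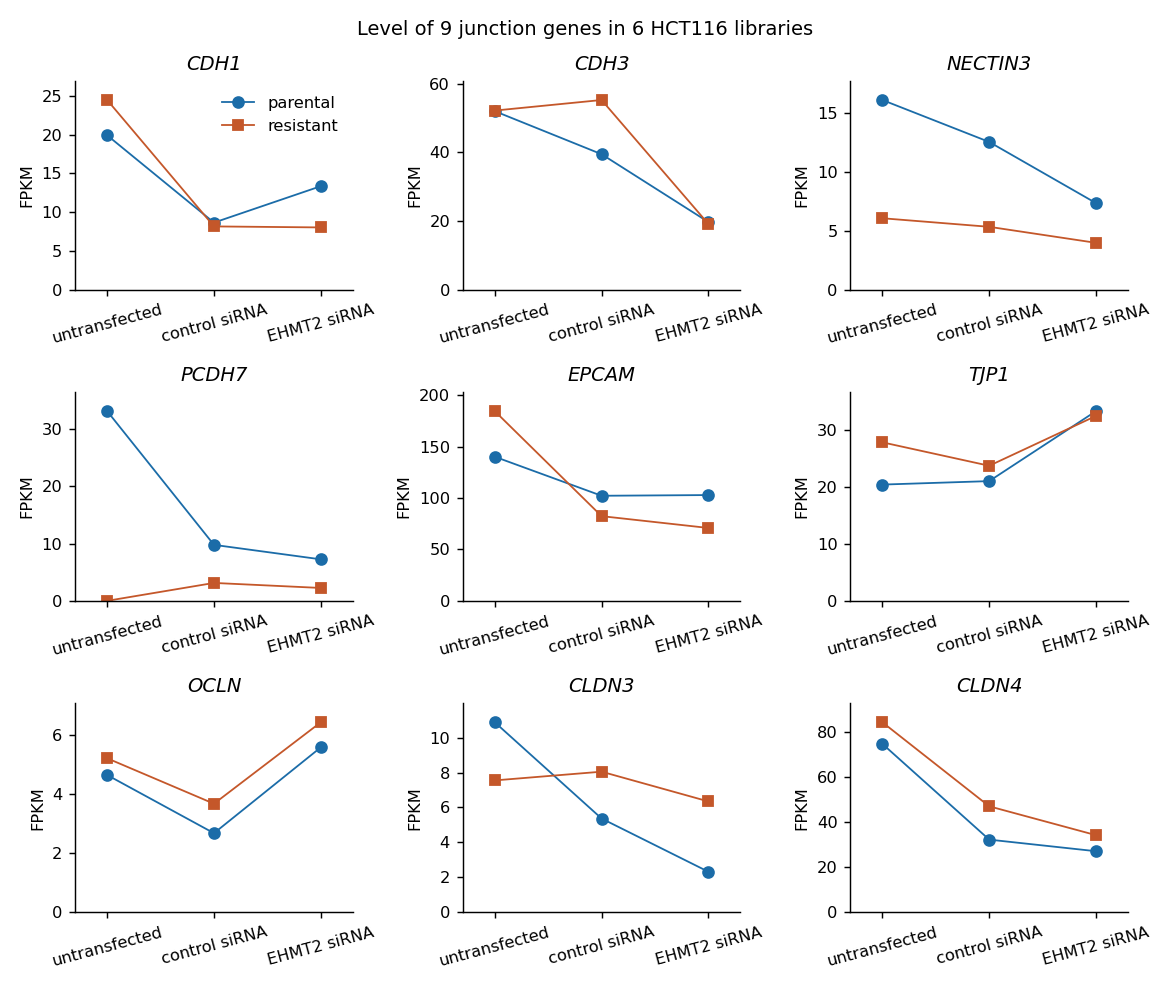
FPKM (y axis, linear and starting at 0, with its own scale for each gene) of the 9 measured genes by treatment (x axis), 1 point per library, with a line joining the libraries of each cell line. CDH1, EPCAM and CLDN4 are highest in the untransfected libraries, CDH3 is lowest and TJP1 and OCLN are highest with EHMT2 siRNA, and NECTIN3 and PCDH7 lie lower in every resistant library than in any parental one.

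The genes include a pair of neighbours on chromosome 16 and another on chromosome 7. CDH3 (chr16:68636189-68722616) and CDH1 (chr16:68737225-68835548) follow each other on the plus strand, 14.6 kb apart, and CLDN3 (chr7:73768997-73770270, minus strand) lies 29.3 kb from CLDN4 (chr7:73799542-73832693, plus strand), with no protein-coding gene between the members of either pair. Coordinates are those of GENCODE 29 on GRCh38. CDH3 shares 11.1% and CDH1 5.62% of its exonic bases with an antisense gene, and since the strand setting is not given, reads from those bases cannot be assigned.

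The resistant and parental lines lay furthest apart in NECTIN3 and PCDH7. NECTIN3, which binds nectins on the next cell and nucleates adherens junctions, stood at 16.1 FPKM in parental and 6.08 in resistant untransfected cells, at 12.6 and 5.35 with control siRNA, and at 7.37 and 3.99 with EHMT2 siRNA. Every resistant library was below every parental one. The log2 ratios of FPKM plus 1, resistant over parental, were −1.28, −1.10 and −0.75. PCDH7 stood at 33.1, 9.77 and 7.24 FPKM in the parental libraries (untransfected, control siRNA and EHMT2 siRNA) and at 0, 3.12 and 2.24 in the resistant ones. Here too the lines did not overlap. The log2 ratios were −1.38 with control siRNA and −1.34 with EHMT2 siRNA, and none is given against the library listed at 0. Complete separation downward in the resistant line held for these 2 of the 9 genes and for 2.73% of the 12310 genes at 1 FPKM or more in any library. Separation upward held for none of the 9 and for 2.79% of all genes. Since the genes were chosen with earlier results known, these shares are a description and not a test.

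CLDN3 gave opposite ratios in the untransfected and the transfected cells. It stood at 10.9 FPKM in parental and 7.55 in resistant untransfected cells (log2 ratio −0.48), at 5.36 and 8.05 with control siRNA (0.51), and at 2.31 and 6.34 with EHMT2 siRNA (1.15). Its chromosomal neighbour CLDN4 was higher in the resistant library of all 3 pairs, at 84.5 against 74.9, 47.1 against 32.2 and 34.2 against 27.1 FPKM, with log2 ratios of 0.17, 0.53 and 0.33. OCLN was also higher in all 3, by 0.14, 0.35 and 0.18. A ratio above 0 in all 3 line pairs was found for these 2 of the 9 genes and for 13.6% of all genes, and a ratio below 0 for 2 of the 9, NECTIN3 and PCDH7, and for 12.7% of all.

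The other adhesion genes showed no steady difference between the lines. CDH1 was at 24.5 FPKM in resistant and 19.9 in parental untransfected cells, at 8.17 and 8.66 with control siRNA, and at 8.04 and 13.4 with EHMT2 siRNA, with log2 ratios of 0.28, −0.08 and −0.67. EPCAM was at 185 and 140.2, at 82.4 and 102, and at 70.9 and 103 FPKM, with ratios of 0.39, −0.31 and −0.53. Both were thus higher in the resistant line without transfection and lower with EHMT2 siRNA. CDH3 had ratios of 0.0047, 0.48 and −0.040 in the same order, and TJP1 0.43, 0.17 and −0.036.

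Counts past 2-fold put the same genes first. In the untransfected pair 0 of the 9 genes were at least 2-fold higher and 2 lower in resistant cells, NECTIN3 and PCDH7, against 3.48% and 3.92% of all genes. With control siRNA the counts were again 0 and 2, of the same 2 genes, against 1.6% and 0.96% of all. With EHMT2 siRNA 1 gene was higher, CLDN3, and 1 lower, PCDH7, against 1.54% and 1.55%. With the libraries rescaled to the same FPKM sum, the median ratio of all genes in the untransfected pair moved from 0.07 to 0.28 and the counts of all genes past 2-fold from 408 higher and 460 lower to 723 and 307, while the 9 genes gave the same counts.

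An additive limma model with line and treatment, in which the disagreement between the treatments serves as the error, called 0 of 11521 genes for line after Benjamini-Hochberg adjustment, and 0 of the 9. At an unadjusted p below 0.05 it held 2 of the 9, both lower, against 2.15% of all genes lower and 3.08% higher. NECTIN3 had a log2 difference of −1.04 with a standard error of 0.17 (limma, Benjamini-Hochberg adjusted p = 0.465), and PCDH7 −2.61 with 0.77 (adjusted p = 0.870). In the fit restricted to the 4 siRNA libraries, 5.08% of 11182 genes fell and 5% rose. NECTIN3 fell there by 0.92 on the log2 scale (standard error 0.15, limma, Benjamini-Hochberg adjusted p = 0.0187). PCDH7 fell by 1.36 (standard error 0.14, limma adjusted p = 0.00621). CLDN3 rose by 0.83 (standard error 0.19, limma adjusted p = 0.0387). This fit has 1 residual degree of freedom and takes most of its spread from other genes, and it cannot see the untransfected pair, in which CLDN3 was lower in resistant cells.

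EHMT2 siRNA was compared with control siRNA in each line, to ask how the junction genes stood with less EHMT2. P-cadherin was the gene with the widest difference. CDH3 was at 39.4 FPKM with control and 19.7 with EHMT2 siRNA in parental cells and at 55.2 and 19.1 in resistant cells, with log2 ratios of −0.97 and −1.48. Both untransfected libraries, at 52.0 and 52.1, lay near the controls, so the 2 EHMT2 siRNA libraries were below the other 4. The tight junction scaffold and occludin went the other way. TJP1 was at 21.0 and 33.3 FPKM in parental cells and at 23.7 and 32.4 in resistant cells, with ratios of 0.64 and 0.44, and at 20.4 and 27.8 without transfection. OCLN was at 2.67 and 5.57 and at 3.66 and 6.42 FPKM, with ratios of 0.84 and 0.67, and at 4.64 and 5.20 without transfection. For both genes the EHMT2 siRNA libraries were above the other 4. Such separation upward held for these 2 of the 9 genes and 25.4% of all genes, and downward for 1 of the 9, CDH3, and 17.2% of all, so the shares of the 9 genes stood near those of all genes.

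Both claudins were lower with EHMT2 siRNA than with control siRNA in each line. CLDN3 was at 5.36 and 2.31 FPKM in parental and at 8.05 and 6.34 in resistant cells, with ratios of −0.94 and −0.30. CLDN4 was at 32.2 and 27.1 and at 47.1 and 34.2 FPKM, with ratios of −0.24 and −0.45. NECTIN3 went from 12.6 to 7.37 and from 5.35 to 3.99 FPKM, with ratios of −0.70 and −0.35. PCDH7 had ratios of −0.39 in parental and −0.35 in resistant cells. CDH1 and EPCAM differed little in resistant cells, by −0.021 and −0.21, and in parental cells CDH1 was at 8.66 and 13.4 FPKM (0.57) and EPCAM at 102 and 103 (0.0095). Over both lines 2 of the 9 genes had ratios above 0 in each pair and 5 below 0, where 46.1% of all genes were above and 35.5% below.

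The median ratio of the 9 genes was −0.24 in parental cells, where the median of all genes was 0.09, and −0.30 in resistant cells, where it was 0.06. At least 2-fold lower was 1 of the 9 in resistant cells, CDH3, against 4.04% of all genes, and none was at least 2-fold higher, against 5.22%. In parental cells 0 of the 9 were past 2-fold in either direction, against 7.48% higher and 3.51% lower. Rescaling to the same sum moved the parental median of all genes from 0.09 to 0.20 and their split from 894 higher and 419 lower to 1154 and 301, and median-centring gave 702 and 575.

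**Figure D2:**
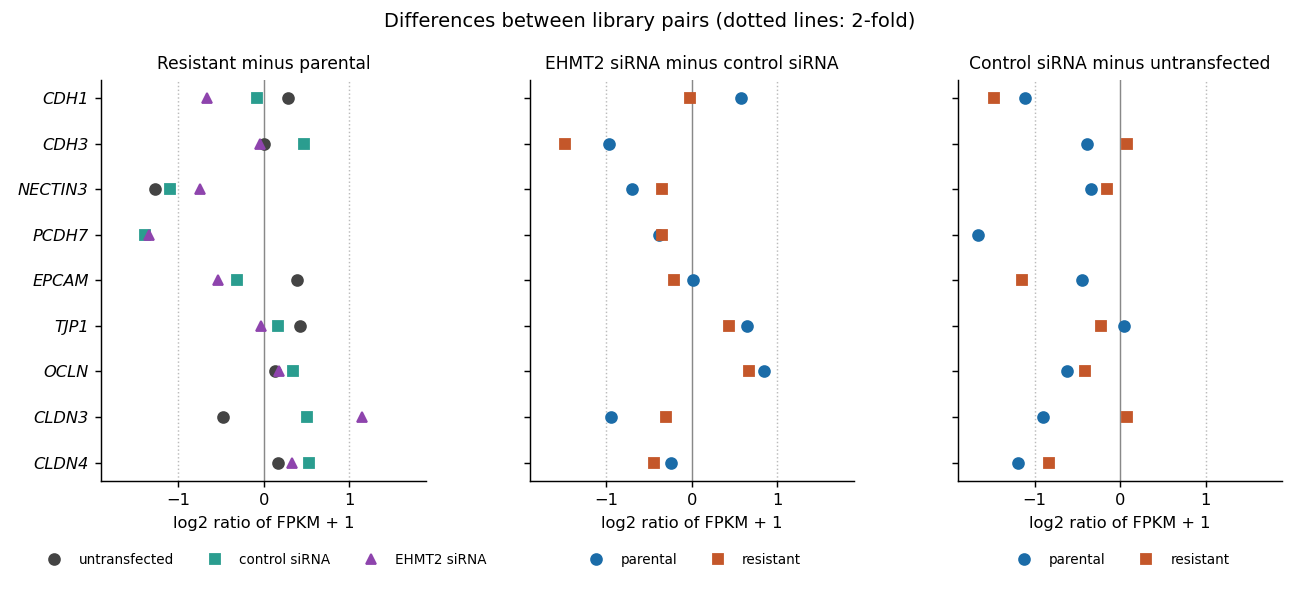
Log2 ratios of FPKM plus 1 for the 9 genes in the line pairs (resistant over parental), the knockdown pairs (EHMT2 siRNA over control siRNA) and the control pairs (control siRNA over untransfected), 1 point per pair of libraries and no error bars, since each group holds 1 library. CDH3 lies at −0.97 and −1.48 in the knockdown pairs, where TJP1 and OCLN lie above 0.

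In the 6-library limma model 0 of 11521 genes, and so 0 of the 9, passed for EHMT2 siRNA, with 2 of the 9 higher and 1 lower at an unadjusted p below 0.05, against 15.5% and 11.1% of all genes. The targeted gene itself had an adjusted p of 0.0636 in this limma fit, with a log2 difference of −1.93 (standard error 0.36). CDH3 was close to the threshold, at −1.22 with a standard error of 0.20 (limma, Benjamini-Hochberg adjusted p = 0.0556), and passed at 0.0496 in limma when only genes at 5 FPKM or more were tested. OCLN had 0.76 with 0.19 (limma adjusted p = 0.0958) and TJP1 0.54 with 0.19 (limma adjusted p = 0.155).

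In the limma fit of the 4 siRNA libraries, where 24.3% of genes rose and 19% fell with EHMT2 siRNA, 2 of the 9 rose and 4 fell. CDH3 fell by 1.22 on the log2 scale (standard error 0.15, limma, Benjamini-Hochberg adjusted p = 0.00132). OCLN rose by 0.76 (standard error 0.15, limma adjusted p = 0.00692), and TJP1 rose by 0.54 (standard error 0.12, limma adjusted p = 0.0106). The smaller falls were those of NECTIN3 (−0.52, limma adjusted p = 0.0287), CLDN3 (−0.62, limma adjusted p = 0.0319) and CLDN4 (−0.35, limma adjusted p = 0.0484). The CLDN4 call was lost when libraries were rescaled to the same sum (limma adjusted p = 0.123). CDH1 (0.28, limma adjusted p = 0.226), EPCAM (−0.10, 0.506) and PCDH7 (−0.37, 0.0751) did not pass. Whether the lines differ in their response to the siRNA could not be tested, since that difference is the error of the model.

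Control siRNA was also compared with untransfected cells, as the background against which the knockdown is read. CDH1, EPCAM and CLDN4 were lower with each siRNA in both lines. CDH1 was at 19.9 and 24.5 FPKM in untransfected parental and resistant cells, and between 8.04 and 13.4 in the 4 siRNA libraries. EPCAM was at 140.2 and 185 against 70.9 to 103, and CLDN4 at 74.9 and 84.5 against 27.1 to 47.1. In all 3 genes each siRNA library lay below both untransfected ones, which held for 3 of the 9 genes and 7.56% of all genes, while the reverse held for 0 of the 9 and 10.1% of all. These 3 were noticed after their values were seen.

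The log2 ratios of control siRNA over untransfected were −1.12 in parental and −1.47 in resistant cells for CDH1, −0.45 and −1.15 for EPCAM, and −1.19 and −0.83 for CLDN4. The lowest ratio in parental cells was that of PCDH7, at −1.66, and CLDN3 had −0.90 in parental and 0.08 in resistant cells. OCLN had −0.62 and −0.41, and NECTIN3 −0.34 and −0.16. Ratios below 0 in both lines were found for 5 of the 9 genes and above 0 for none, beside 23.6% of all genes below and 23.4% above. CDH1 and EPCAM were at least 2-fold lower in resistant cells and PCDH7, at 0 and then 3.12 FPKM, was counted higher, against 3.87% of all genes lower and 4.31% higher. CDH1, PCDH7 and CLDN4 were at least 2-fold lower in parental cells and no gene of the 9 higher, against 2.08% lower and 0.954% higher.

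Rescaling to the same sum moved the parental median of all genes from 0.04 to 0.19 and the split of all genes past 2-fold from 111 higher and 242 lower to 241 and 158. Under it CDH1, EPCAM and CLDN4 still lay below both untransfected libraries in each siRNA library. The members at least 2-fold apart in parental cells went from 3 to 2, with CDH1 at −0.94. The knockdown and the control pairs share the control siRNA libraries, so a low control, as for OCLN, enters both ratios with opposite sign. The labels do not say whether untransfected and transfected cells were grown or sequenced together, and transfection and such differences cannot be told apart. The 6-library limma model called 4 of 11521 genes higher (0.0347%) and 1 lower (0.00868%) for control siRNA and 0 of the 9. At an unadjusted p below 0.05 it held 4 of the 9, all lower, against 3.78% of all genes lower and 3.27% higher. With the same sum per library it held 2, CDH1 and CLDN4, and EPCAM and OCLN were lost. CLDN4 was at −1.01 with a standard error of 0.18 (limma, Benjamini-Hochberg adjusted p = 0.647), CDH1 at −1.30 with 0.27 and EPCAM at −0.80 with 0.27 (both with a limma adjusted p of 0.700).

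The partners of these proteins were read from 7 further lists. The 6-library limma fit called no gene of any list for line, EHMT2 siRNA or control siRNA, and the calls that follow are those of the limma fit of the 4 siRNA libraries with Benjamini-Hochberg adjustment over all genes. With 1 residual degree of freedom, the 4-library fit takes most of its spread from other genes, which limits every adjusted p below. For EHMT2 siRNA that fit called 24.3% of all genes higher and 19% lower, and the median ratio of all genes was 0.09 in parental and 0.06 in resistant cells. Of 17 adherens junction genes tested, 4 rose with EHMT2 siRNA and 5 fell, and the median ratio of the list was 0.16 in parental and −0.16 in resistant cells. CTNNA1, which encodes alpha-catenin, was at 94.5 FPKM with control and 234 with EHMT2 siRNA in parental cells and at 112 and 234 in resistant cells, a rise of 1.18 on the log2 scale (limma adjusted p = 0.000913). LIMA1, which encodes the actin-binding protein EPLIN, was at 40.0 and 97.1 and at 47.1 and 111 FPKM, a rise of 1.24 (limma adjusted p = 0.000601). CTNNAL1, a relative of alpha-catenin, rose by 1.24, and CTNNB1, which encodes beta-catenin, by 0.40. VCL, which encodes vinculin and also binds alpha-catenin and actin, fell by 0.89 (limma adjusted p = 0.0019), beside CDH3, NECTIN3, NECTIN1 and EPB41L5. The list was called in both directions. Of the other catenins that bind cadherins, CTNND1 (−0.22, limma adjusted p = 0.151) and JUP (0.13, limma adjusted p = 0.367) did not pass.

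Of 28 tight junction genes tested, 7 rose and 4 fell, shares near the 24.3% and 19% of all genes. The median ratio of the list was 0.025 in parental and 0.10 in resistant cells. CLDN15, a pore-forming claudin, rose by 1.02 (limma adjusted p = 0.0023), as did CGN, MPP5 and PRKCI by lesser amounts, with TJP1 and OCLN. The genes that fell were CLDN3, CLDN4, MARVELD3 and PARD6A.

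**Figure D3:**
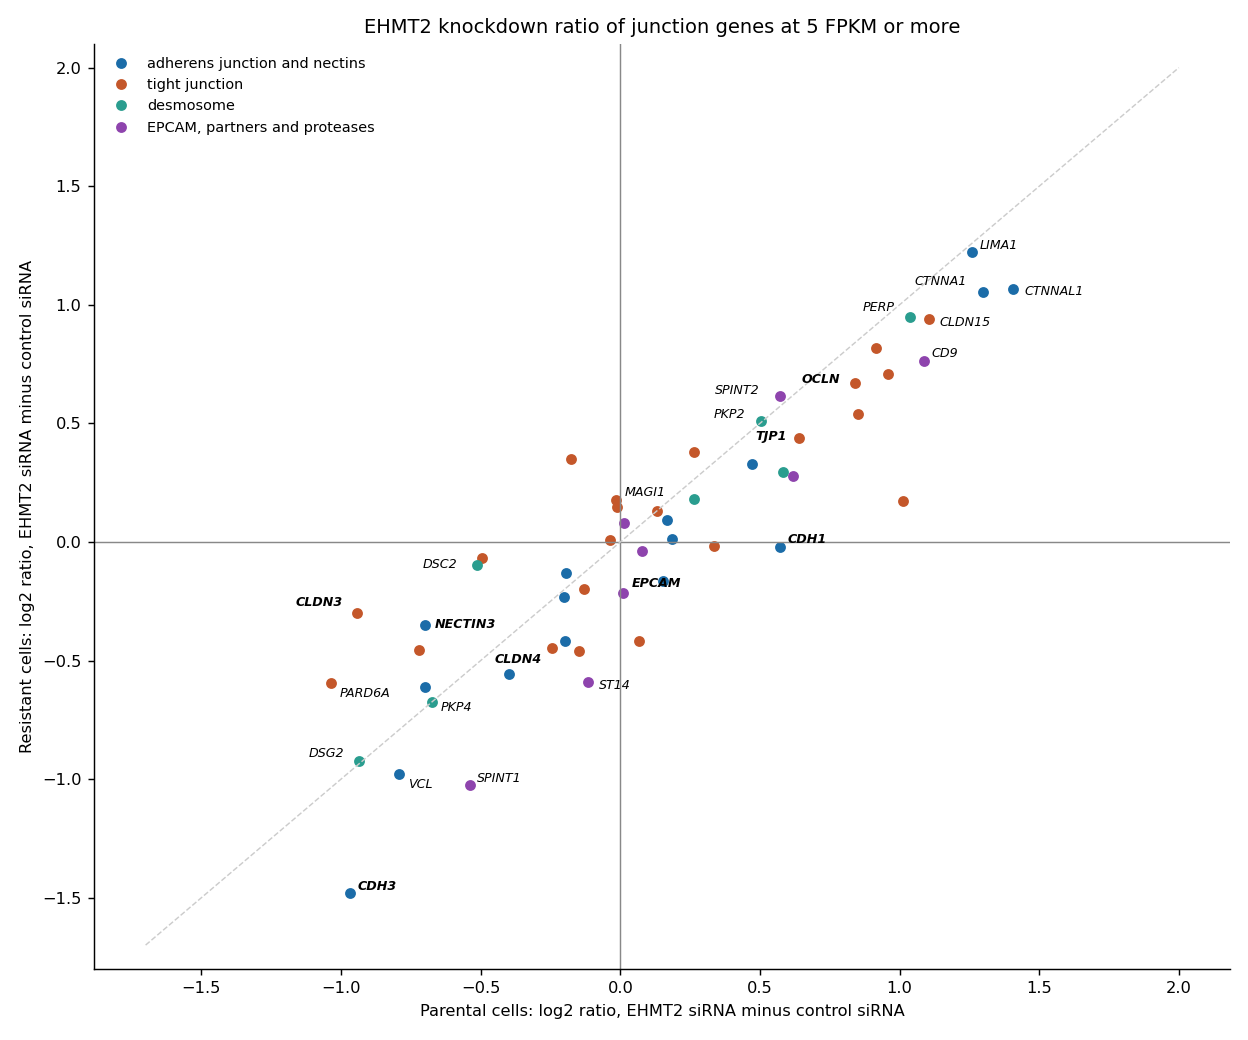
Log2 ratio of EHMT2 siRNA over control siRNA in parental cells (x axis) against resistant cells (y axis) for 53 genes of the adhesion and junction lists at 5 FPKM or more in at least 1 library, 1 point per gene, with the genes described here in bold and a dashed line where both ratios are equal. CTNNA1, CTNNAL1 and LIMA1 lie above 1 on both axes, and CDH3 is the lowest on the y axis at −1.48.

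Of 9 desmosome genes, 3 rose and 2 fell, against 24.3% and 19% of all genes, with a median ratio of 0.17 in parental and 0.093 in resistant cells. PERP, a tetraspan protein of desmosomes, rose by 0.99 and DSG2, the desmoglein of simple epithelia, fell by 0.93 (limma adjusted p = 0.00103 and 0.00129). Of 9 genes of EPCAM's partners and membrane proteases, 3 rose and 1 fell, with medians of 0.014 and 0.022. With so few genes, neither list is set apart from all genes by these counts. CD9, a tetraspanin that binds EPCAM, rose by 0.93 (limma adjusted p = 0.00207), and SPINT1, an inhibitor of the protease matriptase, fell by 0.78 (limma adjusted p = 0.00574). EPCAM itself did not pass in the same fit.

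Of 14 regulators of the epithelial and mesenchymal states, 2 rose and 3 fell, against 24.3% and 19% of all genes, with a median ratio of −0.073 in parental and −0.13 in resistant cells. ZEB1, a repressor of CDH1 that binds the E-box, was at 2.22 FPKM with control and 3.60 with EHMT2 siRNA in parental cells and at 3.20 and 6.05 in resistant cells, a rise of 0.63 (limma adjusted p = 0.0155). CDH1 was at 8.66 and 13.4 and at 8.17 and 8.04 FPKM in the same libraries. ESRP1, an epithelial splicing factor, fell by 0.97 (limma adjusted p = 0.00169), and its relative ESRP2 rose by 0.65 (limma adjusted p = 0.0062). Of 7 mesenchymal genes tested 4 rose and none fell. SPARC did not pass the filter of this fit. It was at 1.56 FPKM with control and 0 with EHMT2 siRNA in parental cells and at 4.98 and 0.85 in resistant cells. With SPARC, 4 of 8 genes were higher and 4 lower in each line, with medians of 0.22 and 0.14. ACTA2, a smooth muscle actin, rose by 1.30 and VIM, the filament protein vimentin, by 0.88 (limma adjusted p = 0.000933 and 0.00522), beside COL1A1. The summed fibroblast markers, of which COL1A1 was the one above 1 FPKM, ran from 3.35 to 6.01 FPKM without EHMT2 siRNA and stood at 9.79 and 4.92 with it in parental and resistant cells. Their part in these results was not tested.

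Between the lines the same fit called 5% of all genes higher and 5.08% lower in resistant cells. Of the 17 adherens junction genes 0 rose and 2 fell, NECTIN1 and NECTIN3. NECTIN1, the binding partner of NECTIN3 across the cell gap, was at 6.26 FPKM in parental and 2.96 in resistant cells with control siRNA and at 3.47 and 1.59 with EHMT2 siRNA, a fall of 0.83 on the log2 scale (limma adjusted p = 0.0225). Without transfection it was at 4.68 and 6.19 FPKM, higher in the resistant library. Of the tight junction genes CLDN3 and CLDN7 rose and CGN, CLDN15 and MARVELD3 fell. Without transfection CGN, CLDN15 and MARVELD3 were higher in the resistant library, with log2 ratios of 0.24, 0.44 and 0.60. CLDN7 went as CLDN3 did, at 57.8 and 44.3 FPKM in untransfected parental and resistant cells, at 22.5 and 43.5 with control siRNA, and at 23.6 and 32.3 with EHMT2 siRNA. It rose in resistant cells by 0.68 in the 4-library fit (limma adjusted p = 0.0327).

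Of the 7 mesenchymal genes 3 rose and 1 fell. S100A4 and VIM rose in the resistant line by 2.16 and 0.98 on the log2 scale (limma adjusted p = 0.00138 and 0.0179), while COL1A1 fell. In untransfected cells VIM was at 4.52 FPKM in parental and 2.56 in resistant cells and S100A4 at 216 and 119, both lower in the resistant library. The sign of the line difference in these 2 genes was thus opposite between untransfected and transfected cells. The same held for CLDN3, CLDN7, CGN, CLDN15, MARVELD3 and NECTIN1. NECTIN3 and PCDH7 kept theirs, and so did COL1A1, CD9 and the desmosome gene DSC3. Untransfected, with control siRNA and with EHMT2 siRNA, the log2 ratios of COL1A1 were −0.18, −0.69 and −0.86. Those of CD9 were 0.50, 0.85 and 0.52, and those of DSC3 −0.95, −0.75 and −1.36. A kept sign was thus not particular to NECTIN3 and PCDH7.

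Genes with the most similar pattern over the 6 libraries were found by the root mean square difference of log2 values centred on each gene's mean, among 9336 genes, as a description. Nearest to CDH1 were BICDL2 (0.12) and TCTA (0.13), and EPCAM differed by 0.23. Nearest to EPCAM were CHMP2B (0.060) and CASP2 (0.090). CDH3 was most like TRPC4AP (0.098) and CTSD (0.13), NECTIN3 like MT-CYB (0.18) and EFNB2 (0.20), and PCDH7 like PRKACB (0.50) and ACSL5 (0.53). OCLN was most like ABI1 (0.052) and TOMM22 (0.056), with TJP1 at 0.21. The neighbours CLDN3 and CLDN4 differed by 0.39, and the nearest genes were TPT1 (0.12) and FGF19 (0.15) for CLDN3 and PSD4 (0.15) and CASC4 (0.16) for CLDN4. The neighbours CDH1 and CDH3 differed by 0.69. Each distance rests on 6 libraries that share their scaling.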

How the data were processed

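Messenger RNA was measured in 6 libraries of HCT116 cells, 1 per group, grouped by the sample titles. The library name of the untransfected resistant cells is written differently from those of the transfected ones, and the series' design text gives both forms. The authors deposited FPKM in 1 table for each library. Per the labels' protocols, total RNA was used with the TruSeq RNA v2 kit. GRCh38, HISAT2 2.2.1, StringTie 2.1.1, cutadapt 4.9 and FastQC 0.12.1 are named, in no order, per the submitters' processing notes. The annotation release and the strand setting were not given in the sources used here. No read counts are in the tables, so depth and counting error are unknown.

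Tables were joined by gene (19957 rows, 19942 symbols, the row of highest mean kept). Ratios are log2 with 1 added to each FPKM, so they understate changes of low genes, and 2-fold counts need 1 FPKM in at least 1 library of the pair. The PCDH7 zero is taken as 0 in counts and fits. The additive model (limma 3.58.1, R 4.3.3, with trend) tested genes that reached 1 FPKM in 3 or more libraries, with Benjamini-Hochberg adjustment over all genes and a threshold of 0.05. It has 2 residual degrees of freedom, and a fit of the 4 siRNA libraries has 1. The model was also run on simulated data with independent noise, which cannot show how its p-values behave in these data. Where nothing says that samples are separate cultures, p-values measure only the spread between these samples. Alternatives were a pseudocount of 0.1, filters, quantile, same-sum and median scaling, other fold thresholds, no trend and leaving out each library.

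Members and lists were chosen with earlier results of these data known. Besides the members and EHMT2, the rule named, per list, the 2 highest and 2 lowest mean knockdown ratios, the highest and lowest mean line ratio among genes at 5 FPKM or more, and the 2 genes nearest in pattern to members spanning a log2 of 1. CTNNA1, CTNNB1, NECTIN1, VIM, SPARC, CLDN7 and the genes listed as called were named after their values were seen. Some genes are not reported here, while the counts include them.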

Additional observations from a re-analysis of the deposited data

Results flagged for a closer look

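Some genes moved in opposite directions under the same contrast in different cells, each time with 1 library per group, and none of these differences was tested. In the line comparison the log2 ratio of resistant over parental cells changed sign between untransfected and siRNA-treated cells for CDH1, EPCAM and CLDN3. For TJP1 and CDH3 it kept its sign with control siRNA and changed it only with EHMT2 siRNA, to −0.036 and −0.040. For CDH1 the ratio with control siRNA was −0.36 relative to that in untransfected cells, and with EHMT2 siRNA −0.95. For EPCAM the same differences were −0.70 and −0.93. CLDN3 went the other way, by 0.98 with control siRNA and 1.63 with EHMT2 siRNA. TJP1 differed by −0.46 between untransfected and EHMT2 siRNA cells and by −0.20 between control and EHMT2 siRNA cells. CDH3 differed by −0.045 and −0.52 in the same order, the former between ratios near 0.

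In the knockdown comparison the parental ratio exceeded the resistant one by 0.59 for CDH1 and by 0.22 for EPCAM, with opposite signs. In the comparison of control siRNA with untransfected cells, the parental ratio minus the resistant one was −0.47 for CDH3, 0.26 for TJP1 and −0.98 for CLDN3. The signs of ratios near 0 for CDH1, CDH3, EPCAM and TJP1 depend on the scaling of the libraries.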

How the results depend on the processing

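The count of the 9 measured genes called by the 6-library limma model, 0 for each term, changed with the libraries used. With the 4 siRNA libraries alone it was 3 for line and 6 for EHMT2 siRNA, and 559 genes rose and 568 fell for line and 2715 and 2125 for EHMT2 siRNA. With only genes at 5 FPKM or more it was 1 for EHMT2 siRNA, with 130 of all genes higher and 133 lower. Alternatives chosen after seeing the data varied the 4-library fit, and gave 3 for line and 6 for EHMT2 siRNA with a pseudocount of 0.1, 5 and 7 with quantile normalisation, 3 and 5 with the same sum per library, and 4 and 7 with median-centring. Leaving out 1 library gave 0 to 3 for line, 0 to 6 for EHMT2 siRNA and 0 to 4 for control siRNA. The counts above 0 came from leaving out an untransfected library: 3, 6 and 2 in this order without the resistant one, and 3, 6 and 4 without the parental one. With 1 untransfected library left, the model fits that library exactly. The estimates for line and EHMT2 siRNA then rest on the 4 siRNA libraries, so the counts of 3 and 6 repeat that fit. For control siRNA the lone untransfected library is assumed to vary like the other groups.

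Counts past 2-fold moved with the threshold by construction. At 4-fold they were 1 for untransfected lines, 0 for lines with control siRNA and with EHMT2 siRNA, 0 for knockdown in resistant cells, and for control siRNA 1 in resistant and 0 in parental cells. At 1.5-fold they were 4 for lines with EHMT2 siRNA, 2 and 5 for knockdown in resistant and parental cells, and 5 for control siRNA in parental cells. For knockdown in parental cells a pseudocount of 0.1 or median-centring gave 2.

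Coefficients of the 6-library model that changed sign did so when 1 library was left out, and none of them had passed the test. For control siRNA they ran from −1.67 to 2.05 for PCDH7, −0.27 to 0.091 for TJP1, −1.06 to 0.24 for CLDN3 and −0.40 to 0.092 for CDH3. For EHMT2 siRNA they ran from −1.31 to 0.58 for PCDH7, −0.39 to 0.19 for EPCAM and −0.11 to 0.66 for CDH1. For line they ran from −0.37 to 0.10 for CDH1, −0.018 to 0.24 for CDH3 and −0.42 to 0.043 for EPCAM. No paired analysis was possible because each group holds 1 library and every library has the same replicate number, so the numbers pair nothing. The additive model itself takes the line effect within treatments and the siRNA effects within lines.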
